A study of Mus musculus with 2 samples.

Results

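Antioxidant and redox defence genes were followed through spleen myeloid cells of tumour-bearing PyMT mice and control mice. The set holds 10 genes chosen by name for their function, Gclm, Hmox1, Msrb1, Txnrd1, Gpx1, Prdx5, Prdx1, Sod1, Sod2 and Cat, of 27998 gene rows in each of the 2 expression matrices. The choice was made with earlier results of these data known. Every member had UMIs in every cell class described here. The PyMT library came from 3 spleens, pooled, of mice carrying the polyoma middle T antigen and bearing tumours. Its strain label reads only PYMT, and the promoter of the transgene, the background and the age are not stated in the labels. The WT library pooled 5 control spleens of strain FVB/n, also of unstated age. In both, cells positive for the surface proteins CD11b and Gr1 were isolated by flow sorting and made into droplet 3′ single-cell libraries. Each group is 1 library of pooled mice, so no test between the conditions exists and no difference has a replicate check. Every interval below is a 95% interval for counting error alone.

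Oxidants made by phagocytes are removed in steps. Superoxide dismutases turn superoxide into hydrogen peroxide, and catalase, glutathione peroxidases and peroxiredoxins break peroxides down. The reduced glutathione and thioredoxin that feed those enzymes come from glutathione synthesis and from NADPH-dependent reductases, and the transcription factor NRF2 is known to drive many of the genes involved. Neutrophils make superoxide in bursts to kill microbes and carry this defence alongside the enzymes that produce the oxidants.

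The PyMT library held 9155 cells and 73435307 UMIs (unique molecular identifiers, 1 per captured transcript) and the WT library 5491 cells and 42542700 UMIs, and 72 cell barcodes occurred in both. Cells were classed by their own transcripts. Neutrophils had at least 10% of UMIs in S100a8 and S100a9 and fewer than 2 UMIs of Cd79a and Cd79b. Monocytes had under 5% and at least 2 UMIs of Csf1r and Ccr2, and B cells under 5% and at least 3 UMIs of Cd79a and Cd79b. Neutrophils were 5488 PyMT and 3980 WT cells, monocytes 1597 and 601, and B cells, which were not the target of the sort, 1152 and 375. In each library 71 cells met both the monocyte and the B cell rule and count in both classes. Neutrophils were then split by Camp, a specific granule gene known to be high in immature neutrophils and low in mature ones. Camp-high cells (at least 4% of UMIs) were 1619 in PyMT and 3456 in WT, Camp-intermediate cells (1 to 4%) 1812 and 468, and Camp-low cells (under 1%) 2057 and 56. Camp-low cells were therefore 37.5% of PyMT neutrophils and 1.41% of WT neutrophils, so a value over all neutrophils mixes these stages in different proportions. UMIs of each class were summed per library and scaled to CPM, the count of a gene per 1000000 UMIs of its class. A gene was called higher or lower at 1.5-fold, among genes with at least 50 UMIs over both libraries. In such sums more RNA per cell and more cells that express a gene cannot be told apart.

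Over all neutrophils, 3 of the 10 members were called higher in PyMT (Gclm, Hmox1 and Msrb1) where 7.11% of 9927 genes were, and 2 were called lower (Sod1 and Cat) where 42.6% of genes were. The median log2 ratio of PyMT over WT was -0.01 over the members and -0.47 over all genes. Scaling by a trimmed mean of M-values (TMM) raised all log2 ratios by 0.44. The same 3 members were then higher by 1.5-fold, where 16.1% of genes were, and no member was lower, against 19% of genes. Ratios below are on the scale of the class total, and each is best read against the median of its class.

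**Figure D1:**
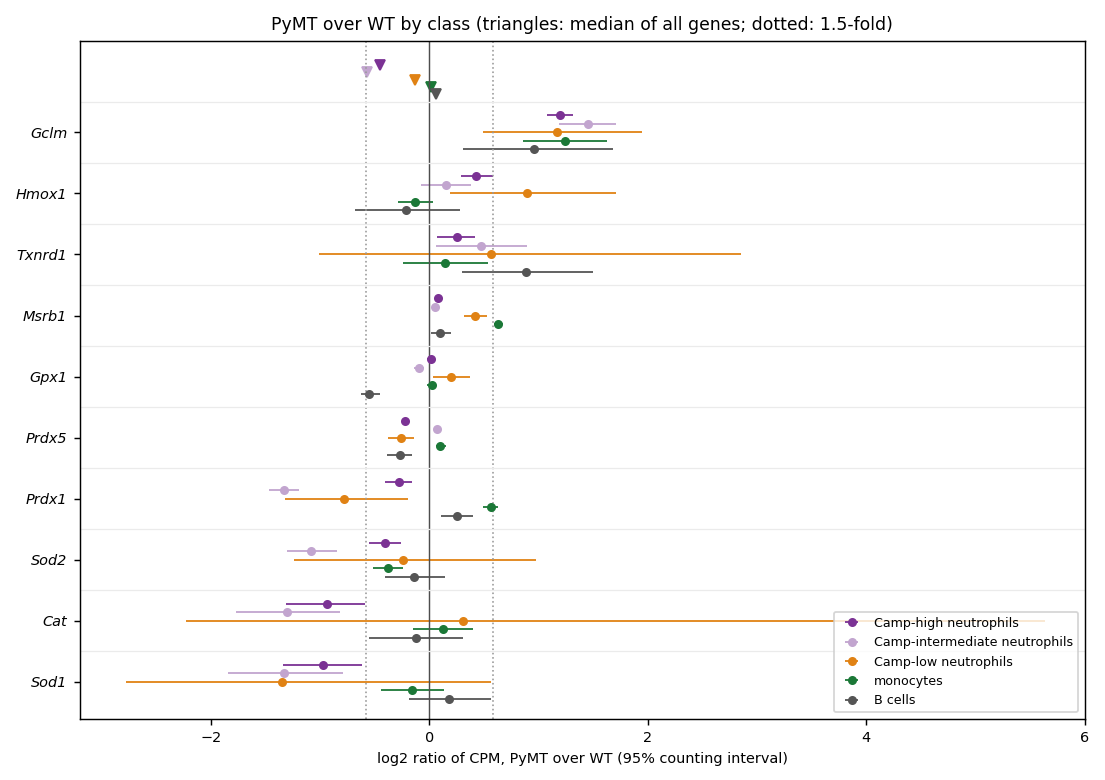
Log2 ratio of CPM, PyMT over WT, of the 10 redox defence genes (rows) in 5 cell classes (colours), with 95% counting intervals, 1 library per group. Triangles at the top mark the median of all genes of each class and dotted lines mark 1.5-fold. Gclm lies to the right of the upper dotted line in all 5 classes, with ratios from 0.96 to 1.45. The Camp-low interval of Cat rests on 1 WT UMI.

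Gclm encodes the modifier subunit of glutamate-cysteine ligase, the enzyme of the first step of glutathione synthesis (chromosome 3, 122245557 to 122270732, plus strand, GRCm38). It was the member with the highest ratio in neutrophils, and it was called higher in PyMT in every class. Over all neutrophils it had 5499 UMIs and 114 CPM (111 to 117) in PyMT, against 1169 UMIs and 38.5 CPM (36.3 to 40.7) in WT. The log2 ratio was 1.56 (1.47 to 1.66), or 2.96-fold. Gclm was at 86.7 CPM in PyMT and 37.8 CPM in WT in Camp-high cells, giving a log2 ratio of 1.20 (1.08 to 1.31). In Camp-intermediate cells it was at 114 and 41.8 CPM, giving a log2 ratio of 1.45 (1.19 to 1.71). In Camp-low cells it was at 166 and 73.9 CPM, giving a log2 ratio of 1.17 (0.49 to 1.95), where the WT value rests on 17 UMIs. The PyMT and WT intervals of the level did not overlap in any of these classes. Gclm was the one member called higher in Camp-high cells, where 3.21% of genes were, and in Camp-intermediate cells, where 5.31% were.

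Outside neutrophils Gclm was also higher in PyMT, at lower levels. Monocytes had 492 Gclm UMIs and 39.5 CPM (36.1 to 43.2) in PyMT, against 65 UMIs and 16.8 CPM (13 to 21.4) in WT, giving a log2 ratio of 1.24 (0.86 to 1.63). In monocytes with Ly6c2 and without Ace, Treml4, Cd209a and Flt3 the log2 ratio was 1.21 (0.55 to 1.94), and in monocytes with Ace or Treml4 it was 1.12 (0.43 to 1.88). These 2 selections were chosen after the data were seen. Gclm was the 1 member called higher in the first, where 10.4% of genes were, and none was lower, against 7.94%. In the second, Gclm and Cat were called higher, where 10.1% of genes were, and none was lower, against 7.79%. B cells had 117 UMIs and 23.6 CPM (19.5 to 28.3) in PyMT and 23 UMIs and 12.1 CPM (7.68 to 18.2) in WT, giving a log2 ratio of 0.96 (0.31 to 1.68). Neutrophil RNA was present in the B cell sums, where S100a8 and S100a9 together stood at 4.62% of the neutrophil level in PyMT and 3.06% in WT. Neutrophil RNA at those shares would carry 5.26 CPM of Gclm in PyMT B cells and 1.18 CPM in WT B cells.

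The share of cells with a Gclm UMI followed the same order. With each cell reduced at random to 2500 UMIs, a number that all cells reached, 17.4% (15.6 to 19.4%) of PyMT and 8.65% (7.74 to 9.64%) of WT Camp-high cells had one. Without thinning the shares were 59.4% and 23.2%, at medians of 11556 and 5756.5 UMIs per cell. In Camp-low cells the thinned shares were 28.9% and 14.3%, the WT one from 8 of 56 cells. B cells, the class with the lowest level, had thinned shares of 4.6% in PyMT and 2.4% in WT (unthinned 8.94% and 5.33%, at medians of 3506.5 and 4003.0 UMIs).

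The partner of Gclm was not higher with it. Gclc, the catalytic subunit of the same ligase, was at 0.807 CPM in PyMT and 2.34 CPM in WT neutrophils (39 and 71 UMIs), giving a log2 ratio of -1.53 (-2.14 to -0.95), and -1.10 under TMM. The intervals did not reach 0 in Camp-high cells either, where the ratio was -1.63 (-2.58 to -0.77). In monocytes Gclc was at 7.23 and 13.2 CPM, giving a log2 ratio of -0.86 (-1.38 to -0.34). In B cells it was at 8.88 and 8.95 CPM.

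Stretches of 49 bases from the promoters of 4 members are shown because they hold the letters TGACNNNGC, the core of the antioxidant response element at which NRF2 is known to act. The RefSeq promoter windows (GRCm38.p6) run from 250 bases before to 50 bases after a gene's start, and 9 of the 10 members have one there, all but Hmox1. Both strands of each window were searched. The letters occur in windows of Gclm, Txnrd1, Prdx1 and Sod1, and in 12.4% of all 32851 windows. All 4 matches lie on the minus strand, so the capitals, which mark the match, show its reverse complement on the plus strand printed here.
Gclm: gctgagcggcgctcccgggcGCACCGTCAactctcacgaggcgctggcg
Txnrd1: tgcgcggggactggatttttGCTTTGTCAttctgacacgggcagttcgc
Prdx1: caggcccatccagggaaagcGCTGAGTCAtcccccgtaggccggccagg
Sod1: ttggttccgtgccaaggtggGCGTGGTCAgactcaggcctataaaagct
The stretches lie at chr3:122245403-122245451 for Gclm, chr10:82859094-82859142 for Txnrd1, chr4:116685446-116685494 for Prdx1 and chr16:90220686-90220734 for Sod1. Relative to the start of the gene, or of 1 of 3 starts for Txnrd1, the matches run from -134 to -126 in Gclm, -92 to -84 in Txnrd1, -133 to -125 in Prdx1 and -56 to -48 in Sod1. The ratios of these 4 genes differed: in Camp-high cells they were 1.20 for Gclm, 0.25 for Txnrd1, -0.28 for Prdx1 and -0.97 for Sod1. A match of letters is a description of the window and shows no binding. In the annotation Gclm overlaps Gm6061 on its own strand, and Gm6061 has no row of its own in the matrices.

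Hmox1 encodes haem oxygenase 1, the inducible enzyme that breaks haem down to biliverdin, iron and carbon monoxide (chromosome 8, 75093621 to 75100589, plus strand). Over all neutrophils it had 3224 UMIs and 66.7 CPM (64.4 to 69) in PyMT, against 966 UMIs and 31.8 CPM (29.8 to 33.9) in WT. The log2 ratio was 1.07 (0.97 to 1.17), or 2.1-fold. The ratio within each Camp class was below that value. Hmox1 was at 38.6 CPM in PyMT and 28.6 CPM in WT in Camp-high cells, giving a log2 ratio of 0.43 (0.29 to 0.58), and at 62.5 and 56.5 CPM in Camp-intermediate cells, giving a log2 ratio of 0.15 (-0.08 to 0.38). In Camp-low cells it was at 129 and 69.6 CPM, giving a log2 ratio of 0.89 (0.19 to 1.71) on 1293 and 16 UMIs. With the 3 Camp classes at equal weight in both libraries, the ratio over all neutrophils was 0.58.

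Cells with monocyte transcripts moved with these values. Neutrophils that also had at least 2 UMIs of Csf1r and Ccr2 were 2.1% of PyMT and 6.92% of WT Camp-high cells, and 7.56% and 31.6% of Camp-intermediate cells. Their part of the UMIs was larger in WT. The WT Camp-intermediate sum was 3133200 UMIs with these cells and 1425168 without them, and the PyMT sum 18870237 and 16459732. In Camp-intermediate cells Csf1r was at 25.9 CPM in PyMT and 148 CPM in WT, and Ccr2 at 35 and 152 CPM. Of the 10 monocyte markers followed, 9 were called lower in PyMT in that class, where 49.2% of all genes were. The summed level of the 10 was 1845 CPM in PyMT and 2646 CPM in WT. In Camp-high cells 9 were called lower too, where 41.1% of genes were, but the sums were 1626 and 1604 CPM. Without the cells that carried Csf1r and Ccr2, Hmox1 was at 65.7 CPM in PyMT and 21.7 CPM in WT over all neutrophils. The log2 ratio was then 1.60 (1.47 to 1.74). In Camp-high cells Hmox1 was then at 38.5 and 20 CPM, giving a log2 ratio of 0.94 (0.77 to 1.12). In Camp-intermediate cells it was at 61.8 and 42.1 CPM, giving a log2 ratio of 0.55 (0.18 to 0.95). Leaving those cells out also moved the median log2 ratio of all genes. It was then -0.34 over all neutrophils, -0.30 in Camp-high, -0.14 in Camp-intermediate and 0.00 in Camp-low cells. With those cells it was -0.47, -0.45, -0.57 and -0.13. The same medians hold for the other members given below without those cells. Without those cells the ratio of Gclm was 1.57 over all neutrophils. In Camp-intermediate cells Gclm was then at 119 and 59.6 CPM, and its ratio was 1.00 (0.68 to 1.33) in place of 1.45.

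In monocytes and B cells Hmox1 was not called in either direction. Monocytes had 106 CPM in PyMT and 116 CPM in WT, giving a log2 ratio of -0.13 (-0.29 to 0.03). Some monocytes had at least 2% of UMIs in S100a8 and S100a9 or also met the B cell rule. Without them the monocyte ratio was -0.24 (-0.40 to -0.07). It was -0.32 (-0.55 to -0.07) with Ace or Treml4 and 0.09 (-0.23 to 0.41) with Ly6c2. B cells had 24.6 and 28.4 CPM, giving a log2 ratio of -0.21 (-0.68 to 0.28). B cells were then taken without those that had at least 2% of UMIs in S100a8 and S100a9 or also met the monocyte rule. Their values were 11.6 and 7.24 CPM on 43 and 9 UMIs, giving a log2 ratio of 0.67 (-0.38 to 1.90). Red pulp macrophages, which recycle haem in the spleen, are known for high Hmox1. Their markers and those of other macrophages summed to 7.8 CPM in PyMT and 9.94 CPM in WT neutrophils. Of 6 with at least 50 UMIs, 3 were called higher in PyMT and 3 lower, where 7.11% and 42.6% of all genes were. C1qa was at 1.84 and 0.79 CPM, Spic at 0.931 and 3.03 CPM, and Vcam1 at 0.89 and 2.67 CPM. Globin transcripts were higher in PyMT: Hba-a1 was at 61.6 CPM in PyMT and 8.06 CPM in WT neutrophils, with 8 erythroid markers at 172 and 18.5 CPM in sum. In B cells Hba-a1 was at 971 and 4.74 CPM. The part of erythroid RNA in the neutrophil values was not tested.

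Msrb1 encodes a selenoprotein that reduces oxidised methionine in proteins (chromosome 17, 24736642 to 24742778, plus strand). Over all neutrophils it had 117929 UMIs and 2440 CPM (2426 to 2454) in PyMT, against 48089 UMIs and 1582 CPM (1568 to 1597) in WT, giving a log2 ratio of 0.62 (0.61 to 0.64). Within Camp classes it was not called. It was at 1596 CPM in PyMT and 1506 CPM in WT in Camp-high cells, giving a log2 ratio of 0.08 (0.06 to 0.11), and at 2191 and 2111 CPM in Camp-intermediate cells, giving a log2 ratio of 0.05 (0.02 to 0.09). In Camp-low cells it was at 4553 and 3393 CPM, giving a log2 ratio of 0.42 (0.32 to 0.53). With the Camp classes at equal weight the ratio over all neutrophils was 0.25. In monocytes it was called higher, with 2668 CPM (2639 to 2697) in PyMT and 1720 CPM (1679 to 1762) in WT, giving a log2 ratio of 0.63 (0.59 to 0.67). Msrb1 and Gclm were the 2 members called higher in monocytes, where 7.84% of genes were and where the median over all genes was 0.01. No member was called lower there, against 9.06% of genes. In the 2 monocyte selections the ratio of Msrb1 was 0.48 with Ly6c2 and 0.55 with Ace or Treml4, both under 1.5-fold. B cells had 696 and 648 CPM, giving a log2 ratio of 0.10 (0.01 to 0.20).

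Txnrd1 encodes cytosolic thioredoxin reductase, which returns thioredoxin to its reduced form with NADPH (chromosome 10, 82833951 to 82897712, plus strand). Over all neutrophils it had 1183 UMIs and 24.5 CPM (23.1 to 25.9) in PyMT and 674 UMIs and 22.2 CPM (20.5 to 23.9) in WT, and the intervals overlapped. The log2 ratio was 0.14 (0.00 to 0.28) there, 0.25 (0.07 to 0.42) in Camp-high cells and 0.47 (0.06 to 0.89) in Camp-intermediate cells. Over 12 settings the ratio over all neutrophils ran from 0.07 to 0.61, the upper end past 1.5-fold. In B cells it was called higher, at 29.1 CPM (24.5 to 34.2) in PyMT and 15.8 CPM (10.7 to 22.5) in WT on 144 and 30 UMIs, giving a log2 ratio of 0.88 with a lower bound of 0.30. Txnrd1 and Gclm were the 2 members called higher in B cells, where 9.85% of genes were, and none was lower, against 7.43%. In monocytes Txnrd1 was at 20.8 and 18.9 CPM, giving a log2 ratio of 0.14 (-0.24 to 0.54). On the plus strand the gene overlaps Eid3 in the annotation, and Eid3 has no row of its own in the matrices.

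Gpx1, the main cytosolic glutathione peroxidase, differed little between the libraries in neutrophils on the scale of the class total (chromosome 9, 108338903 to 108340343, plus strand). It was at 1284 CPM (1273 to 1294) in PyMT and 1168 CPM (1156 to 1181) in WT over all neutrophils, giving a log2 ratio of 0.14 (0.12 to 0.15). Over 12 settings that ratio ran from 0.04 to 0.61, the upper end past 1.5-fold. Camp-high cells had 1143 and 1138 CPM, giving a log2 ratio of 0.01 (-0.02 to 0.03). Monocytes had 2073 and 2047 CPM, giving a log2 ratio of 0.02 (-0.02 to 0.05). In B cells Gpx1 was at 565 CPM (544 to 586) in PyMT and 824 CPM (784 to 866) in WT, giving a log2 ratio of -0.55 (-0.63 to -0.45), just under 1.5-fold lower. Some B cells also met the monocyte rule or had at least 2% of UMIs in S100a8 and S100a9. Without them Gpx1 was at 372 and 478 CPM, giving a log2 ratio of -0.36 (-0.50 to -0.22).

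Prdx5, a peroxiredoxin found in mitochondria, peroxisomes and cytosol, was lower in PyMT by less than 1.5-fold (chromosome 19, 6906697 to 6910106, minus strand). It was at 2775 CPM (2760 to 2790) in PyMT and 3336 CPM (3315 to 3356) in WT over all neutrophils, giving a log2 ratio of -0.27 (-0.28 to -0.25). Under TMM the sign turned, with a log2 ratio of 0.17. Camp-high cells had 2925 and 3406 CPM, giving a log2 ratio of -0.22 (0.21 under TMM). Camp-intermediate cells had 2917 and 2775 CPM, and Camp-low cells 2216 and 2658 CPM. Monocytes had 1370 and 1277 CPM, giving a log2 ratio of 0.10 (0.06 to 0.15). In B cells, at 407 and 491 CPM, neutrophil RNA at the share set by S100a8 and S100a9 would give 31.5% of the PyMT value and 20.8% of the WT value.

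Prdx1, a cytosolic peroxiredoxin, was higher in PyMT monocytes and B cells and lower in PyMT neutrophils on the scale of the class total (chromosome 4, 116685544 to 116700822, plus strand). Monocytes had 9195 UMIs and 739 CPM (724 to 754) in PyMT, against 1946 UMIs and 503 CPM (480.4 to 525) in WT, giving a log2 ratio of 0.56 (0.49 to 0.63), just under 1.5-fold. B cells had 334 and 279.6 CPM, giving a log2 ratio of 0.25 (0.11 to 0.40). In Camp-high cells it was at 45.4 CPM in PyMT and 55.2 CPM in WT, giving a log2 ratio of -0.28 (-0.41 to -0.16), which turned to 0.15 under TMM. In Camp-intermediate cells it was at 71.1 and 179 CPM, giving a log2 ratio of -1.33 (-1.47 to -1.19). In Camp-low cells it was at 73.2 and 126 CPM on 732 and 29 UMIs, giving a log2 ratio of -0.78 (-1.32 to -0.20). Without the neutrophils that carried Csf1r and Ccr2, the levels were 42.9 CPM in PyMT and 31.4 CPM in WT in Camp-high cells, giving a log2 ratio of 0.45 (0.30 to 0.60). They were then 43.7 and 41.4 CPM in Camp-intermediate cells, giving a log2 ratio of 0.08 (-0.31 to 0.49). In Camp-low cells they were then 41.5 and 12.1 CPM, the WT level on 2 UMIs, so without those cells Prdx1 was not lower in PyMT in any of the 3 Camp classes.

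Sod1 and Cat, cytosolic superoxide dismutase and catalase, were sparse in neutrophils and called lower in PyMT (Sod1 at chromosome 16, 90220754 to 90226329, plus strand; Cat at chromosome 2, 103453849 to 103485160, minus strand). Sod1 had 267 UMIs and 5.52 CPM (4.88 to 6.23) in PyMT and 297 UMIs and 9.77 CPM (8.69 to 10.9) in WT, giving a log2 ratio of -0.82 (-1.07 to -0.58). Cat had 277 UMIs and 5.73 CPM (5.08 to 6.45) in PyMT and 298 UMIs and 9.81 CPM (8.72 to 11) in WT, giving a log2 ratio of -0.77 (-1.02 to -0.53). In Camp-high cells their log2 ratios were -0.97 and -0.94, the 2 members called lower of 41.1% of genes. In Camp-intermediate cells they were -1.33 and -1.30, and Sod2 and Prdx1 were called lower too, 4 members where 49.2% of genes were. Under TMM the ratios over all neutrophils were -0.39 for Sod1 and -0.34 for Cat, both within 1.5-fold. Without the cells that carried Csf1r and Ccr2, Sod1 was at 5.05 and 6.81 CPM, giving a log2 ratio of -0.43 (-0.73 to -0.13), and Cat at 4.38 and 7.23 CPM, giving a log2 ratio of -0.72 (-1.03 to -0.42). In monocytes neither differed beyond counting error, with Sod1 at 33.1 and 36.9 CPM and Cat at 41 and 37.7 CPM.

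Sod2, the mitochondrial superoxide dismutase, was at 31.4 CPM (29.8 to 33) in PyMT and 43.1 CPM (40.8 to 45.5) in WT neutrophils, giving a log2 ratio of -0.46 (-0.56 to -0.35) (chromosome 17, 13006846 to 13040063, plus strand). That ratio lay at the median of all genes and was -0.02 under TMM. In Camp-intermediate cells Sod2 was at 33.8 and 71.5 CPM, giving a log2 ratio of -1.08 (-1.30 to -0.85), and without the cells that carried Csf1r and Ccr2 it was -0.31 (-0.74 to 0.14). The median of all genes in that class was -0.57 with those cells and -0.14 without them. Monocytes had 117 CPM in PyMT and 152 CPM in WT, giving a log2 ratio of -0.38 (-0.52 to -0.24), where scaling moved the median of all genes by -0.01. In Camp-low cells Sod1 and Cat had 4 and 1 WT UMIs and Sod2 had 8, too few for a direction, although Sod1 was past 1.5-fold there. Over all members in Camp-low cells 2 were called higher, Gclm and Hmox1, where 18.6% of genes were, and 2 lower, Sod1 and Prdx1, where 30.5% were.

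**Figure D2:**
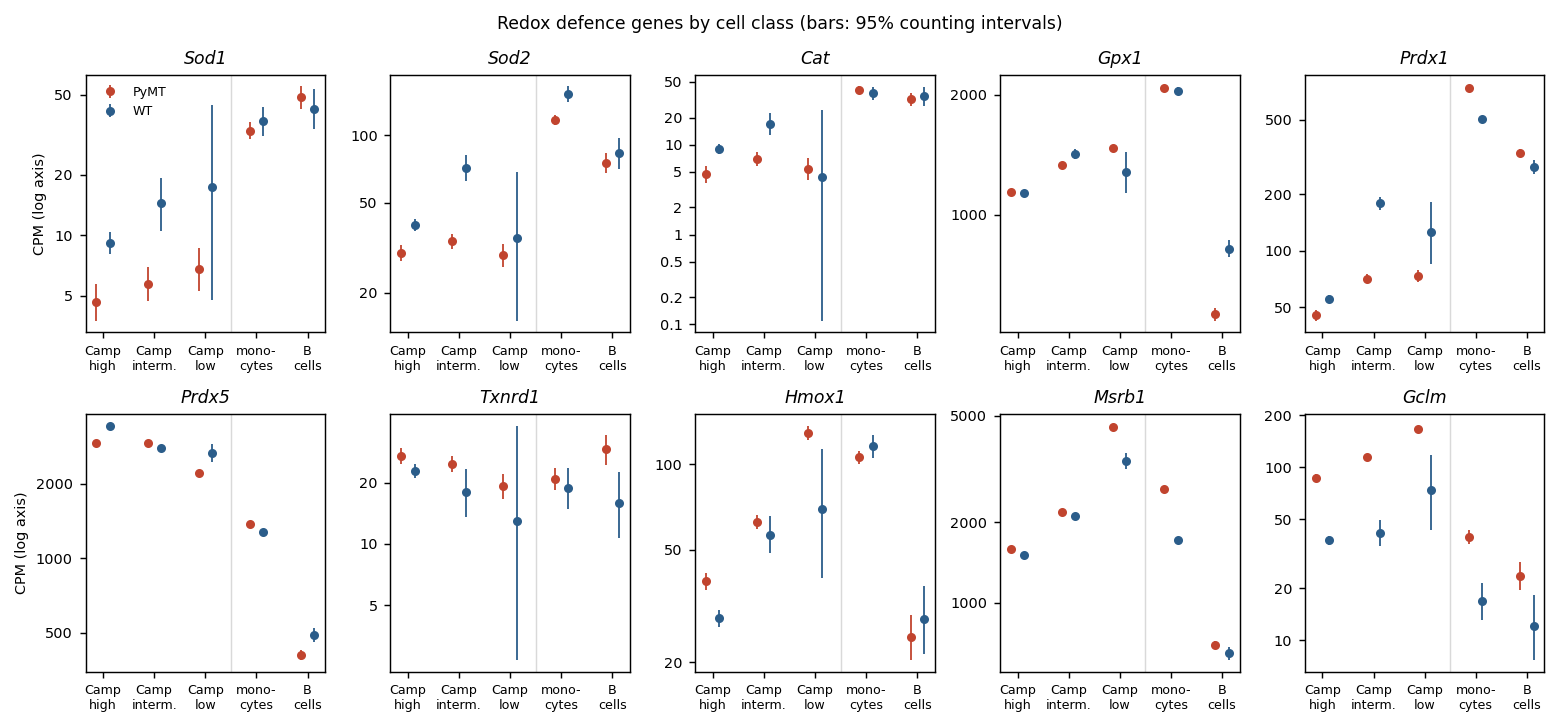
CPM on a log axis of the 10 members in 3 Camp classes of neutrophils, in monocytes and in B cells, in the PyMT library (red, left of each pair) and the WT library (blue, right), with 95% counting intervals. Prdx5 and Gclm are higher in neutrophils than in monocytes and B cells, while Sod1, Sod2, Cat and Prdx1 are highest in monocytes or B cells.

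The members were distributed differently over the classes. Prdx5 was at 2775 CPM in neutrophils, 1370 in monocytes and 407 in B cells of PyMT, and at 3336, 1277 and 491 CPM in WT. Gclm had the same order, at 114, 39.5 and 23.6 CPM in PyMT and at 38.5, 16.8 and 12.1 CPM in WT, although the WT monocyte and B cell intervals overlapped. These were the 2 members called higher in neutrophils than in monocytes, where 10.4% of genes were in PyMT and 14.2% in WT. Prdx1 had the widest range, at 61.2, 739 and 334 CPM in PyMT and at 68.5, 503 and 279.6 CPM in WT. Gpx1 was highest in monocytes and lowest in B cells in both libraries, and so was Msrb1. Sod1, Sod2 and Cat were lowest in neutrophils in both libraries. Sod1 was higher in B cells than in monocytes in PyMT, at 48.4 and 33.1 CPM, while in WT the intervals of 42.6 and 36.9 CPM overlapped. Sod1, Sod2, Cat, Gpx1, Prdx1 and Hmox1 were the 6 members called lower in neutrophils than in monocytes, where 70.8% of genes were in PyMT and 60.7% in WT. Against B cells, neutrophils had Prdx5, Gclm, Msrb1, Hmox1 and Gpx1 called higher in PyMT, 5 members where 15.2% of genes were, and Prdx5, Gclm and Msrb1 in WT, 3 members where 16.6% were. Sod1, Sod2, Cat and Prdx1 were the 4 called lower than in B cells, where 66.2% of genes were in PyMT and 56.8% in WT. Among the cells that met no class, which enter no comparison here, 4 members were called higher in PyMT, Gclm, Hmox1, Msrb1 and Prdx1, where 8.72% of genes were, and none lower, against 12.2%. Txnrd1 was the flattest member: all its levels in these 3 classes were between 15.8 and 29.1 CPM. Hmox1 was highest in monocytes in both libraries over all neutrophils, but PyMT Camp-low neutrophils, at 129 CPM (122 to 137), were above PyMT monocytes, at 106 CPM (100 to 111).

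Along the decline of Camp, 4 members were called higher in Camp-low than in Camp-high cells of the PyMT library, Hmox1, Msrb1, Gclm and Prdx1, where 26.7% of 7874 genes were, and none was called lower, against 20.7%. Hmox1 was at 129 CPM in Camp-low and 38.6 CPM in Camp-high cells, giving a log2 ratio of 1.74 (1.61 to 1.88). Msrb1 was at 4553 and 1596 CPM, giving a log2 ratio of 1.51 (1.49 to 1.53), and Gclm at 166 and 86.7 CPM, giving a log2 ratio of 0.94 (0.84 to 1.04). Prdx5 went the other way, at 2216 and 2925 CPM, giving a log2 ratio of -0.40 (-0.42 to -0.38), and so did Txnrd1, at 19.2 and 27 CPM, giving a log2 ratio of -0.49 (-0.74 to -0.25). In the WT library, with 56 Camp-low cells, the ratios were 1.28 (0.47 to 1.99) for Hmox1, 1.17 (1.07 to 1.27) for Msrb1, 0.97 (0.18 to 1.66) for Gclm and -0.36 (-0.48 to -0.24) for Prdx5. There 5 members were called higher, where 25.6% of genes were, and 2 lower, where 16.2% were, but the calls of Sod1, Cat and Txnrd1 rest on 4, 1 and 3 Camp-low UMIs. The Prdx1 ratio of 0.69 in PyMT was -0.05 without the cells that carried Csf1r and Ccr2.

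**Figure D3:**
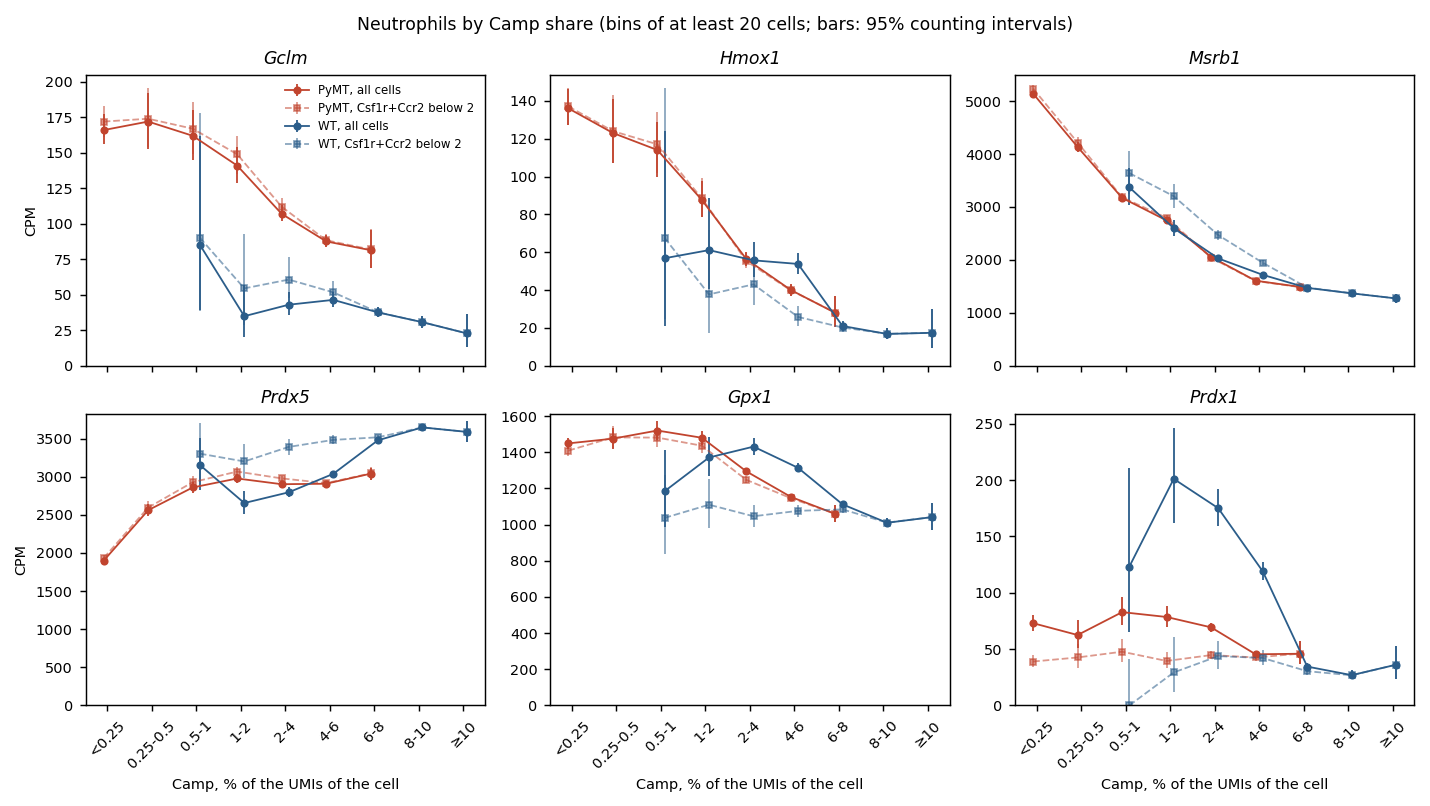
CPM of 6 members in neutrophils binned by the share of Camp among the UMIs of the cell, in the PyMT library (red) and the WT library (blue), with 95% counting intervals, for bins of at least 20 cells. Dashed lines leave out cells with 2 or more UMIs of Csf1r and Ccr2, bins of a kind chosen after the data were seen. Gclm is higher in PyMT in each bin that both libraries fill, with intervals that overlap only at 0.5 to 1% Camp, while the solid Msrb1 lines stay within 1.5-fold, and the raised WT Prdx1 between 1 and 6% Camp is absent from the dashed line.

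Finer bins of Camp set the libraries side by side at like Camp. At 4 to 6% Camp, where both libraries had many cells (1434 in PyMT and 827 in WT), Gclm was at 87.6 CPM (83.3 to 92.1) in PyMT and 46.4 CPM (41.6 to 51.7) in WT. At 6 to 8% it was at 81.4 and 37.6 CPM, and at 2 to 4% at 107 and 43 CPM. Msrb1 at those shares was 1607 and 1718 CPM at 4 to 6%, 1490 and 1472 CPM at 6 to 8%, and 2056 and 2028 CPM at 2 to 4%. At 0.5 to 1% Camp, with 28 WT cells, Gclm was at 162 CPM (145 to 180.0) and 85.3 CPM (39 to 162), and these intervals overlapped. Gclm thus differed beyond counting error in the bins from 1 to 8% Camp, and Msrb1 was within 1.5-fold in each of the bins given. Hmox1 at 4 to 6% Camp was at 40 CPM (37.1 to 43.1) in PyMT and 53.8 CPM (48.5 to 59.4) in WT, the opposite of its difference over all neutrophils. Without the cells that carried Csf1r and Ccr2 it was at 39.8 CPM (36.9 to 42.9) and 25.8 CPM (20.9 to 31.6) in the same bin. Prdx1 in that bin was at 45.4 CPM in PyMT and 119 CPM in WT, and at 42.6 and 42.1 CPM without those cells. Among the PyMT cells under 0.25% Camp, Msrb1 reached 5143 CPM and Hmox1 136 CPM, while Prdx5 was at 1899 CPM.

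Other genes of the same pathways were followed in 7 lists, also chosen with earlier results of these data known. Of 86 genes 74 had at least 50 UMIs over all neutrophils; 10 of these (13.5%) were higher in PyMT and 18 (24.3%) lower, against 7.11% and 42.6% of all genes. Their median log2 ratio was -0.28, against -0.47 over all genes. Under TMM 22 of the 74 were higher and 6 lower, the 6 being Txnrd2, Glrx5, Gclc, Lancl1, Cul3 and Nnt, against 16.1% and 19% of all genes on that scale. Genes named from each list are those with the largest ratios in either direction.

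Of 15 genes of glutathione synthesis and transfer, 2 were higher and 5 lower. Ggt1, which cleaves glutathione outside the cell, was at 31 CPM in PyMT and 1.15 CPM in WT (1500 and 35 UMIs), giving a log2 ratio of 4.75 (4.27 to 5.28). It stood at 10.1 and 0.814 CPM in Camp-high cells, giving a log2 ratio of 3.64 (3.00 to 4.34). Camp itself differed within that class, at 49995 CPM in PyMT and 70641 CPM in WT. Ggt1 was not followed in finer bins of Camp. The other higher gene was Gsr, glutathione reductase, at 963 and 608 CPM, giving a log2 ratio of 0.66 (0.64 to 0.69), named after its value was seen. Besides Gclc, Lancl1, which binds glutathione, was lower at 16 and 46 UMIs, and Slc3a2, the heavy chain of the cystine and glutamate exchanger, was at 38.3 and 74 CPM, giving a log2 ratio of -0.95 (-1.04 to -0.86).

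Of 9 NRF2 regulators and other NRF2 targets, 2 were higher and 1 lower. Osgin1, a stress-induced NRF2 target, was at 23.3 CPM in PyMT and 9.84 CPM in WT, giving a log2 ratio of 1.24 (1.06 to 1.43), and 0.78 (0.54 to 1.03) in Camp-high cells. Nqo1, a quinone reductase, had 170 and 52 UMIs, giving a log2 ratio of 1.04 (0.58 to 1.52). Cul3, the scaffold of the ubiquitin ligase that holds NRF2 down, was at 14.3 and 30.1 CPM, giving a log2 ratio of -1.07 (-1.21 to -0.92). Mafg, a small MAF partner of NRF2, was at 93.7 and 130.2 CPM, giving a log2 ratio of -0.47. This lay at the median of all genes, and was -0.04 under TMM. The transcript of NRF2 itself, Nfe2l2, named after its value was seen, was at 95.6 and 94.2 CPM, giving a log2 ratio of 0.02 (-0.05 to 0.09).

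Of 10 genes of haem, iron and metal buffering, 3 were higher and 1 lower. Steap4, a metalloreductase of iron and copper, had 2404 UMIs in PyMT and 2 in WT, giving a log2 ratio of 9.56 (7.71 to 12.61). Of the PyMT UMIs 1880 lay in Camp-low cells. Within Camp-high cells it had 188 and 2 UMIs, giving a log2 ratio of 7.03 (5.15 to 10.08). Slc40a1, the iron exporter ferroportin, was at 144 and 85.6 CPM, giving a log2 ratio of 0.76 (0.69 to 0.82), but 0.16 (0.07 to 0.25) within Camp-high cells. Slc11a1, a metal transporter of phagosomes, was at 40.5 and 24.2 CPM, giving a log2 ratio of 0.74 (0.62 to 0.87), but -0.25 (-0.45 to -0.06) within Camp-high cells. Blvra, which turns biliverdin from haem breakdown into bilirubin, was at 5.3 and 8.95 CPM, giving a log2 ratio of -0.76 (-1.01 to -0.51).

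Of 13 genes of the thioredoxin, glutaredoxin and methionine repair list, 2 were higher and 4 lower. Txnip, the inhibitor of thioredoxin, was at 116 CPM in PyMT and 73.4 CPM in WT, giving a log2 ratio of 0.66 (0.59 to 0.73), but -0.20 (-0.31 to -0.10) within Camp-high cells. The other higher gene was Glrx, at 614 and 406 CPM, named after its value was seen. Glrx5, a mitochondrial glutaredoxin of iron-sulfur cluster assembly, was at 10.6 and 24.2 CPM, giving a log2 ratio of -1.18 (-1.35 to -1.02). Mitochondrial thioredoxin reductase Txnrd2 had a log2 ratio of -1.04 (-1.43 to -0.64), and Glrx3 of -0.84 (-0.99 to -0.68). Of 7 superoxide and peroxide enzymes none was higher and 2 were lower. They were Prdx6, at 212 and 327 CPM, and Gpx4, which reduces lipid peroxides, at 271 and 412 CPM, with log2 ratios of -0.63 and -0.61 that were -0.19 and -0.17 under TMM. Ccs, the copper chaperone of Sod1, and mitochondrial Prdx3 had ratios of -0.47 and -0.35, within 1.5-fold. Under TMM that of Ccs was -0.04 and that of Prdx3 turned to 0.09.

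Of 11 genes of NADPH supply, 1 was higher and 3 lower. G6pdx, the first enzyme of the pentose phosphate pathway, was at 239 CPM in PyMT and 149 CPM in WT, giving a log2 ratio of 0.68 (0.63 to 0.73). Nnt, the mitochondrial transhydrogenase, was at 6.35 and 15.4 CPM, giving a log2 ratio of -1.27 (-1.49 to -1.06), and Idh2 and Pgls had ratios of -0.85 and -0.60. Of 9 genes that make oxidants none was higher and 2 were lower, Hvcn1, a proton channel, at -0.95 and Cybb, the catalytic subunit of the phagocyte NADPH oxidase, at -0.67 (659.7 and 1049 CPM). Under TMM the ratio of Cybb was -0.23, within 1.5-fold. Ncf4, an oxidase subunit, was within 1.5-fold at 0.51. Mpo, the myeloperoxidase of primary granules, was at 11 and 16.1 CPM, giving a log2 ratio of -0.54 (-0.72 to -0.36) that turned to 0.16 with equal weight per cell. Within Camp-high cells it was at 3.24 and 18 CPM, giving a log2 ratio of -2.47 (-2.88 to -2.09). In Camp-intermediate cells it went the other way, at 22.7 and 0.638 CPM on 429 and 2 UMIs, giving a log2 ratio of 5.15 (3.29 to 8.20).

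**Figure D4:**
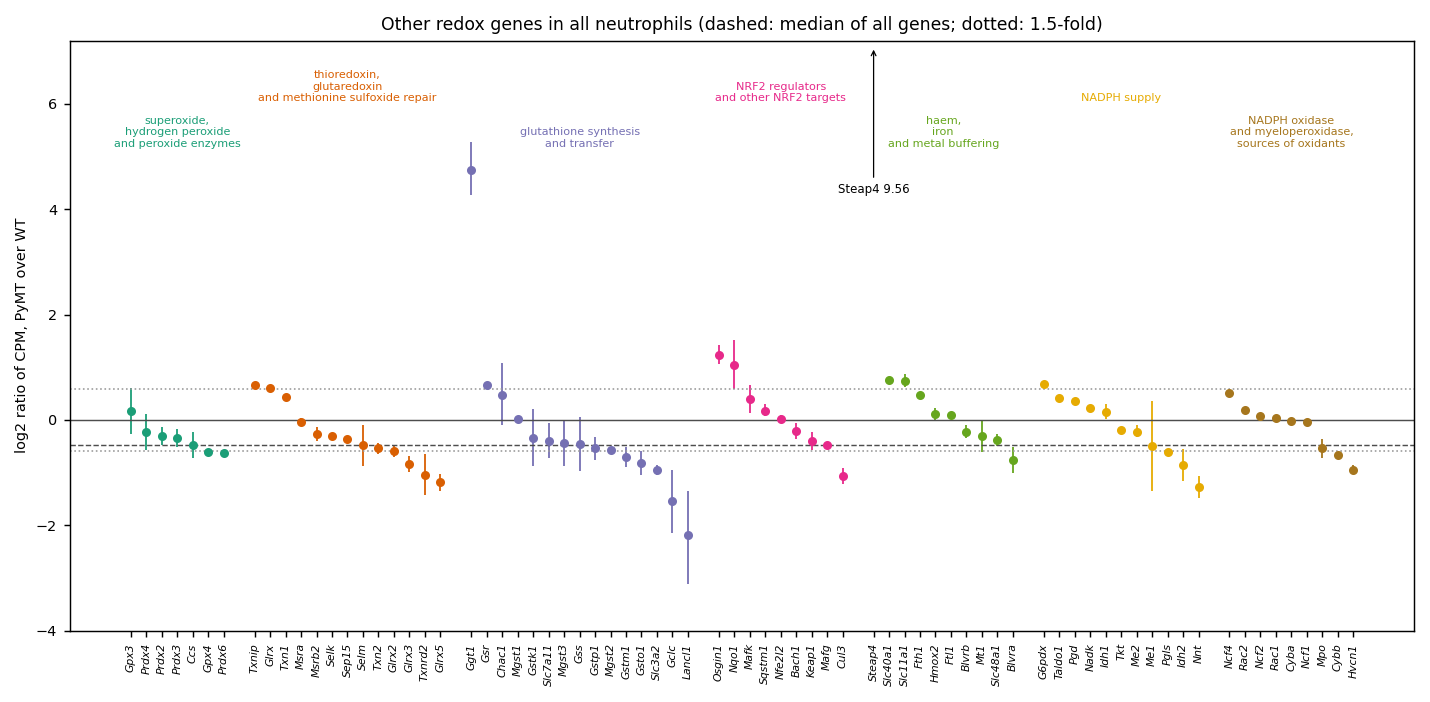
Log2 ratio of CPM, PyMT over WT, over all neutrophils for the 74 pathway genes with at least 50 UMIs, grouped by list, with 95% counting intervals. The dashed line marks the median of all genes at -0.47 and dotted lines mark 1.5-fold. Ggt1 at 4.75 and Steap4 at 9.56, which is off the axis, stand far above the other genes.

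Genes with the profile most like each member were found by Pearson correlation of log2(CPM + 10) over 10 profiles, the 5 classes in both libraries, among 8442 genes. The profiles share libraries and cells, so the correlations only describe. The nearest to Gclm were Ctsd and Il1r2 (r of 0.98 for both), and the nearest to Msrb1 were Taldo1 and Ctnnbip1 (0.99). Hmox1 was nearest to Lsp1 and Csf2rb (0.98), Prdx5 to Itgam and Clec5a (0.99), and Gpx1 to Adam15 and Pik3r6 (0.98). Prdx1 was nearest to Pyhin1 (1.00) and Slc25a5 (0.99), Sod1 to Bcap29 and Tbl3 (1.00), Sod2 to Siah2 and Lpar6 (0.99), and Cat to Fxr1 and Commd7 (0.99). Txnrd1, with the smallest range over the profiles, had the loosest neighbours, Elk1 (0.88) and Bace1 (0.82). Among the members themselves, Sod2 and Cat were most alike (0.95), and Sod1 and Prdx5 were most unlike (-0.87).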

How the data were processed

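Spleen cells of 2 pooled groups were measured as droplet 3′ libraries. The deposited files hold raw UMI counts per gene and cell, which the authors made with Cell Ranger 2.1.0 on mm10, per the submitters' processing notes. The lowest cell held 2502 UMIs in PyMT and 2752 in WT, and what set that limit is not stated in the labels. Doublets were not called.

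A cell needed 200 detected genes and a mitochondrial share of no more than 10%, and 5 PyMT cells failed this. Another 984 PyMT and 606 WT cells met no class, and 71 in each library met both the monocyte and the B cell rule and count in both. Counts were summed per library and class. Levels have exact Poisson intervals and ratios exact conditional ones (scipy 1.17.1), and shares have Clopper-Pearson intervals; all cover counting error only. A sum at 0 was set to a floor of 3 counts, used only as a bound. The calculation was tested on simulated counts. Alternatives were TMM (edgeR 4.0.16), scaling by median of ratios, dropping the top 50 genes from the total, weighting cells equally, thinning, no cell filter, stricter classes, cycling or large cells left out, and other UMI minimums.

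Named genes are all members, up to 4 genes per pathway list with the largest ratios, and the 2 nearest genes per member. Members and lists were chosen with earlier results of these data known. Positions are from GENCODE M21 on GRCm38, and promoters from RefSeq.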

Additional observations from a re-analysis of the deposited data

Results flagged for a closer look

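Prdx1 was picked out because it went opposite ways in different cell classes with intervals that did not reach 0. The log2 ratio of PyMT over WT was 0.56 in monocytes and 0.25 in B cells, but -0.28 in Camp-high, -1.33 in Camp-intermediate and -0.78 in Camp-low neutrophils. Under TMM the Camp-high ratio turned to 0.15. The difference between classes was not tested, since each group is 1 library. The values without neutrophils that carried Csf1r and Ccr2 are given with the gene above.

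Cells in no class, which the comparisons do not use, had 4 members at least 1.5-fold higher in PyMT, where 8.72% of 8888 genes were. Their log2 ratios were 1.29 for Gclm, 1.11 for Hmox1, 0.72 for Msrb1 and 0.65 for Prdx1, over 984 PyMT and 606 WT cells. These differences were not tested either.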

How the results depend on the processing

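No paired analysis was possible because each group is 1 pooled library. Gclm kept a ratio above 1.5-fold in each class under every setting that gave it a ratio, from 0.86 in Camp-low to 2.03 over all neutrophils. Of 144 counts of called members 102 stayed within 1.5 times and 42 moved, and of 810 ratios 77 turned sign, 13 of them from a ratio past 1.5-fold and 64 from a ratio within it. Counts are for the higher and the lower direction in PyMT. Over all neutrophils (3 and 2) the lower count was 0 under TMM, and median of ratios gave 5 and 0; the lower count was 1, Cat, with equal weight per cell, without cells of a second class and at 20% S100a8 and S100a9. In Camp-high cells (1 and 2) TMM and median of ratios gave 3 and 0. The higher count there was 2 without the 50 most abundant genes, with equal weight, and at 20%, and the second-class setting gave 2 and 1. In Camp-intermediate cells (1 and 4) the higher count was 5 under TMM and median of ratios, and 2 without the 50 most abundant genes and with equal weight. Thinning gave 2 and 2, leaving out second-class cells 2 and 1, the 20% limit 3 and 1, and at least 200 UMIs a lower count of 2. In Camp-low cells (2 and 2) the higher count was 4 under TMM, median of ratios, the second-class setting and the 20% limit. The lower count was 0 with equal weight, thinning, the second-class setting and the 20% limit, and 1 without cycling cells and at 200 UMIs. In monocytes the higher count was 1, Gclm, without second-class cells and in the Ly6c2 selection, where 10.4% of genes were called. In B cells the lower count was 1, Gpx1, under TMM, median of ratios and thinning, and at least 200 UMIs gave a higher count of 0. Of ratios past 1.5-fold, Prdx1 turned sign without second-class cells and at 20%: to 0.08 and 0.55 in Camp-intermediate cells, to 1.78 under both in Camp-low cells, and for Camp-low over Camp-high cells to -0.05 and -0.13 in PyMT and -1.38 and -1.82 in WT. Sod2 turned to 0.02 in Camp-intermediate cells at 20%, and Sod1 to 0.01 in Camp-low cells when thinned. In WT, Camp-low over Camp-high, Sod1 turned to -0.16 with equal weight and -0.10 when thinned, and Txnrd1 to 0.03 when thinned. Of ratios within 1.5-fold, Prdx1 turned over all neutrophils (to between 0.13 and 0.43) and in Camp-high cells (to between 0.09 and 0.45) under TMM, median of ratios, equal weight, thinning, the second-class setting and the 20% limit. Gpx1 turned in Camp-intermediate cells under 7 of 10 settings, and Prdx5 and Msrb1 there under 4 each. The cause was not tested beyond what each setting leaves out. The 56 WT Camp-low cells, with 229891 UMIs, limit that class most.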
